A study of Mus musculus with 6 samples.

Results

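The macrophage marker genes described here are 36 genes known from macrophages and other leukocytes, followed through 6 cultures of primary mouse embryonic fibroblasts to judge how much macrophage RNA each culture held. They were chosen by name, and every probe set annotated to 1 of them was taken, which gave 63 of 45037 probe sets and 36 of 18193 named genes. Matings of mice heterozygous for a deletion of exon 2 of Cas (p130Cas, gene symbol Bcar1), a docking protein of integrin adhesions, gave the embryos, collected at 12.5 days post coitum. Head and inner organs had been removed for genotyping, and the rest of the body was put into culture in serum-containing medium. The groups were wild type (Cas exon 2+/+), heterozygotes (Cas exon 2+/∆) and homozygotes (Cas exon 2∆/∆). Each had 2 embryos on 1 Affymetrix array each, hybridized from 2 µg of total RNA, and no group received any further treatment. The strain is given as B6 for 5 of the 6 samples. A p-value here weighs a difference against the spread between single embryo cultures, and 6 arrays limit how precise any value can be.

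Macrophages are phagocytes that settle in nearly all tissues of the embryo, first from the yolk sac and later from the fetal liver, and clear dying cells there. Their development depends on the transcription factor PU.1 (encoded by Spi1) and on signalling through the receptor of colony stimulating factor 1 (Csf1r). Their known genes encode Fc receptors and the adaptors these signal through, scavenger receptors, the C1q chains of complement, lysosomal enzymes and the phagocyte oxidase. A culture prepared from a whole embryonic body wall can carry such cells along with the fibroblasts. In RNA of a whole culture, fewer macrophages and less of a transcript in each macrophage cannot be told apart.

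Levels are log2 intensities after quantile normalization. They are compared between arrays for 1 probe set at a time, not between genes. Medians and sums over a list join several probe sets and are likewise compared between arrays only. Where a gene had several probe sets, the one with the highest mean is given. Of the 36 genes, 31 had a mean above the intensity filter of 4.57 and were tested, while Lcp2, Itgam, Cx3cr1, Aif1 and Cd163 lay below it and are described by their values only. Passing the filter could depend on the arrays where a gene was high, so counts are given over all 36 genes. The cultures had the transcripts of their label, since 14 of 14 measured fibroblast markers were above the filter, and Vim, the intermediate filament of mesenchymal cells, lay between 13.68 and 13.81 on every array. The targeted gene Bcar1 lay at 9.37 and 8.42 in wild type, 8.19 and 8.32 in the heterozygotes, and 8.08 and 8.43 in homozygotes (difference of homozygotes from the mean of the other genotypes -0.32, SE 0.31, limma adjusted p = 1). The sources used here do not place its probe sets with respect to exon 2, so this level checks nothing about the deletion.

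The arrays also differed in sex-linked genes, which bears on every comparison below. Xist, the RNA of the inactive X chromosome, was at 8.82 in wild type 1 and at 10.27 and 10.29 in the heterozygotes, but at 3.70 and 5.31 in the homozygotes and at 4.23 in wild type 2. Eif2s3y, which is Y-linked, was at 3.61, 1.24 and 1.70 in the first of these sets and at 8.76, 8.61 and 8.37 in the other. Both homozygote cultures thus had the sex-linked expression of male embryos and both heterozygote cultures that of female embryos, so genotype and embryo sex cannot be told apart between these genotypes.

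Macrophage markers were present in all 6 cultures and single cultures set their extremes. Homozygote 1 had the highest level for 29 of the 36 genes, and wild type 1 the lowest for 20, with both true of 18. Among all 18193 genes, homozygote 1 was highest for 16.5%, wild type 1 lowest for 22.6%, and both held for 5.84%. Taken from each gene's mean over the arrays, the median level of the markers was 1.20 in homozygote 1, 0.30 in homozygote 2, 0.28 in wild type 2, -0.34 and -0.44 in the heterozygotes, and -0.84 in wild type 1. Homozygote 2 and wild type 2 therefore lay side by side between a high and a low extreme, each of which belonged to 1 culture. Homozygote 1 exceeded wild type 1 by a median of 2.28 on the log2 scale, or 4.85-fold, while the median over all 18193 genes was -0.06.

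On the linear scale, the intensities of the 36 genes summed to 6377 in wild type 1 and 13077 in wild type 2, 9888 and 8626 in the heterozygotes, and 24884 and 12998 in the homozygotes. The bright genes Cyba and Lyz2 made up a large share of these sums, which weigh the brightest probe sets most. Without them the sums were 2838 and 6849 in wild type, 4430 and 4056 in the heterozygotes, and 15176 and 6809 in the homozygotes. The sum over 14 fibroblast markers ran from 61809 in wild type 1 to 91905 in homozygote 1, and was 78557 in wild type 2, 79672 in homozygote 2, and 87657 and 88965 in the heterozygotes. Fibroblast markers were lowest in wild type 1 for 11 of 14 genes, as the macrophage markers were for 20 of 36. The part of the low fibroblast level of wild type 1 in its macrophage marker level was not tested.

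**Figure D1:**
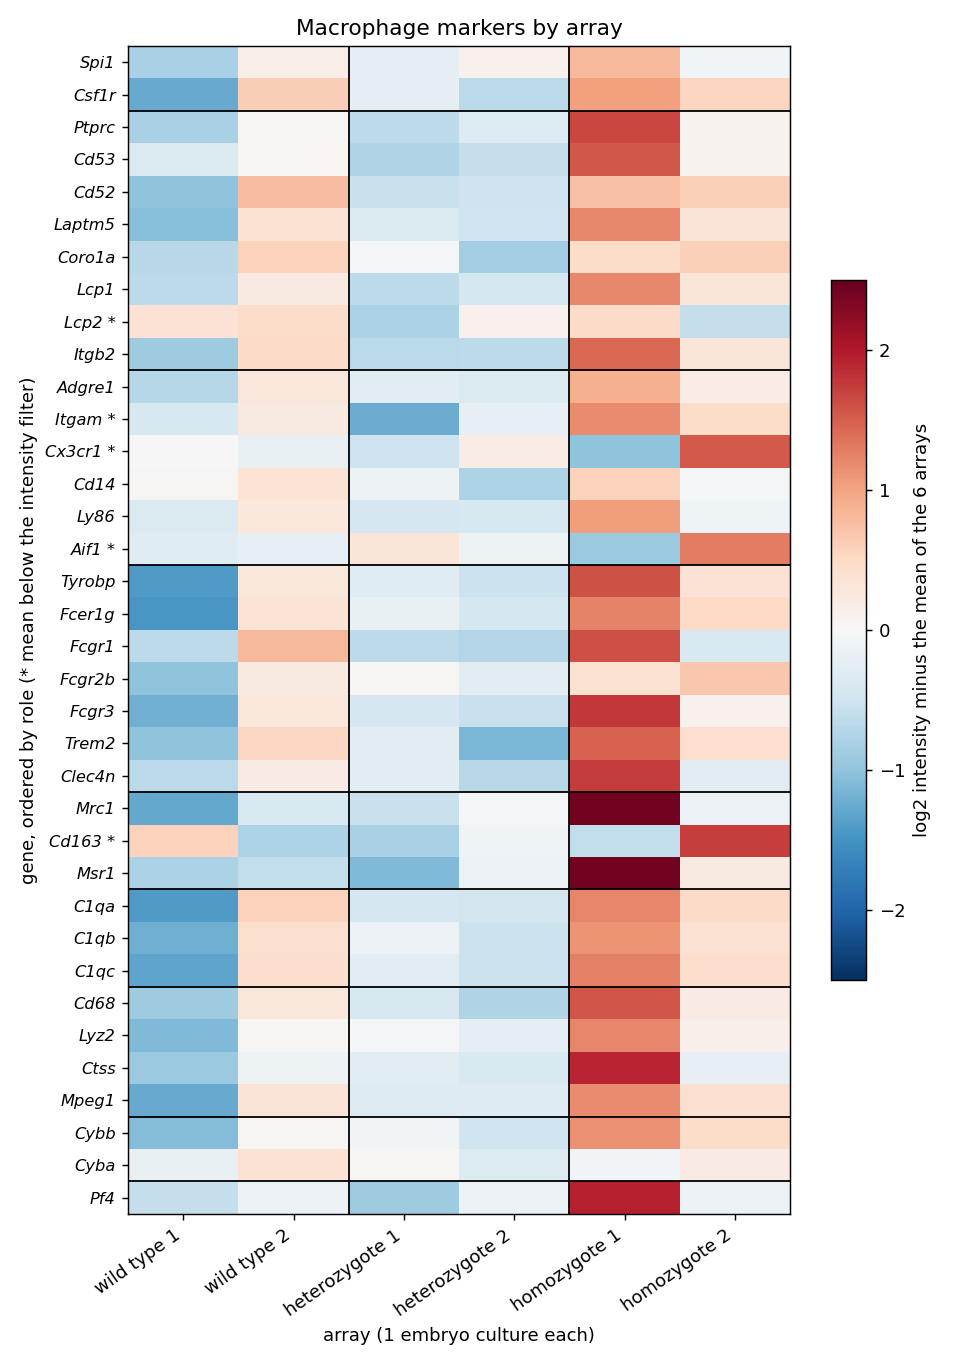
Log2 intensity of each of the 36 macrophage markers (rows, grouped by role in the order of the text) on each of the 6 arrays (columns), as the difference from the gene's mean over the arrays. Homozygote 1 is the highest array in 29 rows, wild type 1 the lowest in 20, and 3 rows of dim genes (Cx3cr1, Aif1, Cd163) are highest in homozygote 2 and low in homozygote 1.

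The sequence before the start of some of these genes is shown because PU.1, the lineage factor of macrophages, is known to bind purine-rich sites with the core GAGGAA. From RefSeq's promoter table (GRCm38.p6), 26 of the 36 genes were used, with 30 start sites. Not among them were Spi1, Csf1r, Adgre1, Tyrobp, C1qa, Itgb2, Cd14, Cd52, Clec4n and Msr1. The search over the markers skipped a chromosome that the count over all sites kept, so the shares come from unlike sets of sites. The 250 bases before the start held GAGGAA or its reverse complement TTCCTC, on either strand, at 15 of these 30 sites (14 genes), and at 23.3% of all 32851 sites of the table. The TATA motif TATAAA, or TTTATA on the other strand, was at 3 of the 30 and at 12.4% of all. The 4 stretches below overlap no annotated gene. They belong to a C1q chain and a lysosomal protein, whose homozygote cultures differed by 0.74 and 1.38, and to a receptor and a chemokine with gaps of 2.57 and 2.09. The core is in capitals on whichever strand it was found, at 30 bases before the start in C1qb, 225 in Cd68, 180, 167 and 35 in Mrc1, and 8 in Pf4.
C1qb (chr4:136886201-136886450, minus strand): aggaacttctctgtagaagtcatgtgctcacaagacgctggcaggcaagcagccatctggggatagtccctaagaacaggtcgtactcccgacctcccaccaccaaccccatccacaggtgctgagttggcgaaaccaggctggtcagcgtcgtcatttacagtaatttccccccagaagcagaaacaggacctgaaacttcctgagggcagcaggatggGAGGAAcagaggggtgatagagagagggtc
Cd68 (chr11:69666171-69666420, minus strand): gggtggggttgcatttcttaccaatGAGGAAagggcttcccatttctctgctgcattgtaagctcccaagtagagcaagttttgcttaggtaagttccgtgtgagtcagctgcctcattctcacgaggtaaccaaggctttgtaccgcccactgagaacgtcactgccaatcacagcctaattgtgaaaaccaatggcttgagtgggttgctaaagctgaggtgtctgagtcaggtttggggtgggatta
Mrc1 (chr2:14229164-14229413, plus strand): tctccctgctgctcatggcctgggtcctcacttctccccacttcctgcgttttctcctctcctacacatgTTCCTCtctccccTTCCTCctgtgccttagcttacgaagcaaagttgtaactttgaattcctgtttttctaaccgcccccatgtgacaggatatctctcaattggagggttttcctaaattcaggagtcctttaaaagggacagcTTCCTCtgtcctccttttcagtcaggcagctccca
Pf4 (chr5:90772185-90772434, plus strand): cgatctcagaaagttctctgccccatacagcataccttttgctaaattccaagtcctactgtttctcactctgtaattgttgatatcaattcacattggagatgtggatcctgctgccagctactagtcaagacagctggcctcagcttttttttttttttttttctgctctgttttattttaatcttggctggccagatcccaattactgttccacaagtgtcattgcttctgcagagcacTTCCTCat
A match of these letters is a description and shows no binding. The genes shown are all among the 14 that held the core, so no relation of the core to these gaps can be read.

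Homozygotes were compared with the mean of wild type and heterozygotes, which joins the comparisons named in the study's design. Homozygotes had the higher level in 35 of the 36 markers, with a median difference of 1.16 (2.24-fold), and Lcp2 was lower at -0.09. Among all genes 47.6% were higher, with a median of -0.02. The largest difference was that of the scavenger receptor Msr1 (1.98) and the smallest positive one that of the oxidase subunit Cyba (0.10). Of the 31 tested markers 0 were below the threshold of 0.05 (limma, Benjamini-Hochberg adjusted p = 1 for each), as were 0% of the 22519 tested probe sets. At an unadjusted p under 0.05, limma gave 15 of the 31, all higher, where 1.1% of all 11373 tested genes were higher at that level. The smallest unadjusted limma p among markers was 0.0165, of Msr1. The count of 15 also depended on single arrays. A fit without 1 array leaves 1 culture in that genotype, so only differences are given for such fits. The count was 4 with no intensity filter, 9 with a replicate block, 22 with median centring and 0 with embryo sex as a covariate. In either direction, 560 of 22519 probe sets reached that level in the main fit. In these fits 2208 of 45037, and then 410, 542 and 1104 of 22519, did.

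The same genes differ together from culture to culture, so their count does not add up independent evidence. Leaving out homozygote 1 lowered the difference by over 1.5 times for 20 of the 36, and leaving out wild type 1 did so for 12. Without homozygote 1 the median difference was 0.73, and without wild type 1 it was 0.80. Without wild type 2 it was 1.45, and without homozygote 2 it was 1.57. With a covariate for embryo sex, made from Xist and 3 Y-linked genes, the median was -0.14 and 13 of the 36 genes were higher in homozygotes. Wild type was the only genotype with arrays of both kinds. Wild type 2 and both homozygotes, the arrays with high Y-linked genes, all lay above the other 3 arrays for 27 of the 36 markers, against 3.56% of all genes. The covariate differed less within the heterozygotes (-6.12 and -6.31) and the homozygotes (6.19 and 4.56). Its fit rested mainly on the wild-type cultures (-3.56 and 5.24), so it cannot tell embryo sex from the gap between those cultures. The part of embryo sex in the difference was not tested.

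Both homozygote cultures lay above the other 4 arrays for 12 of the 36 markers, against 4.09% of all genes, and below them for 0, against 4.94%. The margin was thin. For 6 of the 12 (Pf4, Cd53, Ptprc, Lcp1, Tyrobp and Mpeg1) the nearest arrays were apart by less than 0.1. On the probe set given for each gene, only Msr1 (0.38) and Cybb (0.44) had a margin of at least 0.3. In 10 of the 12 the nearest arrays were homozygote 2 and wild type 2. Other probe sets changed this ranking. Neither other Cybb probe set was separated. The other tested Msr1 probe sets had homozygote 2 at 5.47 and 5.67, and the highest culture of another genotype at 5.47 and 5.45. All other tested Fcgr2b probe sets were separated. Homozygote 1 was at 6.72, 7.55 and 6.34 there, and the highest culture of another genotype at 6.12, 7.04 and 6.03. With median centring in place of quantile normalization, 19 markers were separated in this way, against 3.91% of all genes. The count was 28 when wild type 2 was left out, against 6.52%, and 30 when homozygote 2 was, against 18.2%, since fewer arrays then have to lie apart.

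Against wild type alone, homozygotes were higher for 34 of 36 markers (47.2% of all genes), with a median of 1.08. None passed (limma adjusted p between 0.973 and 0.996), and limma gave 6 at an unadjusted p under 0.05, against 1.66% of tested genes higher at that level. That count was 2 with a replicate block, 2 with only the arrays of these genotypes and 16 with median centring. In either direction, 578, 649 and 872 of 22519 probe sets reached that level there, against 855 in the main fit. The count also depended on single arrays. The median was 0.44 without wild type 1 and 1.69 without wild type 2. Against heterozygotes alone all 36 were higher (48% of all genes), and the median was 1.20. The limma adjusted p was 1 for each tested gene, with 8 at an unadjusted p under 0.05, against 0.994%. The median was 0.77 without homozygote 1. The count of 8 was 6 with a replicate block, 21 with only the arrays of these genotypes and 15 with median centring. In those fits 347, 607 and 458 of 22519 probe sets reached that level in either direction, against 488 in the main fit. This count depended on single arrays too. Heterozygotes against wild type had 13 markers higher (48.7% of all genes) and 23 lower, with a median of -0.11 and limma adjusted p between 0.838 and 0.998. In this last comparison 0 reached an unadjusted p under 0.05, against 2.37% of tested genes higher. Its direction was not stable, with a median of -0.69 and 4 markers higher without wild type 1, 0.35 and 28 higher without wild type 2, and 0.08 and 21 higher without quantile normalization, where the median of all genes was 0.09. These comparisons share arrays and are not independent of each other.

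The growth factor receptor and the lineage factor of macrophages were both highest in homozygote 1 and lowest in wild type 1. Csf1r lay at 7.20 and 9.06 in wild type, 8.21 and 7.77 in the heterozygotes, and 9.47 and 8.99 in homozygotes. Wild type 2 lay between the homozygotes, so the groups overlapped (difference 1.17, SE 0.51, limma adjusted p = 1). The other Csf1r probe sets gave 0.80 and 0.25. Spi1, which encodes PU.1, was at 4.56 and 5.53 in wild type, 5.14 and 5.48 in the heterozygotes, and 6.17 and 5.30 in homozygotes. Homozygote 2 lay among the other genotypes and below heterozygote 2 (0.56, SE 0.37, limma adjusted p = 1). Without homozygote 1 the Spi1 difference was 0.12, and without wild type 1 that of Csf1r was 0.69. Csf1, the ligand of the receptor and a product of fibroblasts, was at 10.67 and 9.94, 10.21 and 9.88, and 10.35 and 10.41 in the same order (0.20, SE 0.26, limma adjusted p = 1). Its highest array was wild type 1, where the receptor was lowest.

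Genes shared by most leukocytes had 7 of 8 members higher in homozygotes, with a median of 1.14. Laptm5, a lysosomal membrane protein of blood cells, lay at 6.67 and 8.13 in wild type, 7.38 and 7.25 in the heterozygotes, and 8.95 and 8.07 in homozygotes (1.16, SE 0.45). The tetraspanin Cd53 was at 7.33 and 7.75, 6.95 and 7.11, and 9.25 and 7.79 in that order (1.24, SE 0.41). Lcp1, the actin-bundling protein L-plastin, was at 6.92 and 7.80, 6.92 and 7.12, and 8.77 and 7.88 (1.13, SE 0.36). In all 3 genes homozygote 1 stood above every other culture and homozygote 2 was within 0.07 of wild type 2 (limma adjusted p = 1 for each). Without homozygote 1 their differences were 0.72, 0.51 and 0.69. The other tested probe sets of Laptm5 gave less, at 0.63, 0.32 and 0.07, and the mean over all its probe sets differed by 0.51. The remaining genes of the group were the phosphatase Ptprc (1.33), the integrin chain Itgb2 (1.30), the surface glycoprotein Cd52 (0.98), the actin regulator Coro1a (0.78) and the adaptor Lcp2 (-0.09, below the filter). Cd52 was highest in wild type 2 and Coro1a in homozygote 2.

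Surface and cytoplasmic markers that are used to identify macrophages were higher in homozygotes for 6 of 6 genes, with a median of 0.54. Adgre1, an adhesion receptor that serves as the standard surface marker of mouse macrophages, lay at 6.76 and 7.76 in wild type, 7.20 and 7.13 in the heterozygotes, and 8.38 and 7.66 in homozygotes. Wild type 2 was again above homozygote 2 (0.81, SE 0.35, limma adjusted p = 1). Cd14, the lipopolysaccharide co-receptor, was at 6.74 and 7.06, 6.59 and 5.95, and 7.28 and 6.66 in that order, with a difference of 0.38 (SE 0.29, limma adjusted p = 1). Its arrays spanned little and the homozygotes fell on either side of the wild type. Ly86, a partner of a Toll-like receptor relative, was at 4.82 and 5.46, 4.76 and 4.78, and 6.23 and 5.08 (0.70, SE 0.37, limma adjusted p = 1). Without homozygote 1 the differences were 0.45 for Adgre1, 0.07 for Cd14 and 0.12 for Ly86. The integrin chain Itgam, below the filter, had a difference of 1.22.

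Cx3cr1, the fractalkine receptor, and Aif1, which encodes the calcium-binding protein Iba1, went against the list within the homozygotes. Both had means below the filter. Cx3cr1 was at 3.40 in homozygote 1, its lowest array, and 5.93 in homozygote 2, its highest. Aif1 was at 2.05 and 4.26 in these arrays, likewise its lowest and its highest. The other Cx3cr1 probe set, also below the filter, had homozygote 2 highest too (4.76). Homozygote 1 was not its lowest array, at 4.0 against 3.12 in heterozygote 2. These 2 genes and Cd163 were the markers with the largest gap in favour of homozygote 2, at 2.53, 2.22 and 2.35 below it in homozygote 1, and all 3 were below the filter.

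Fc receptors and their signalling partners were higher in homozygotes for 7 of 7 genes, with a median of 1.30. Tyrobp, which encodes the adaptor DAP12, lay at 7.29 and 8.98 in wild type, 8.40 and 8.17 in the heterozygotes, and 10.29 and 9.06 in homozygotes (1.46, SE 0.54, limma adjusted p = 1). Homozygote 1 was 8.0-fold above wild type 1, while homozygote 2 and wild type 2 were within 0.07. The Fc receptor gamma chain Fcer1g was at 6.21 and 8.0, 7.49 and 7.23, and 8.90 and 8.17 in that order (1.30, SE 0.51, limma adjusted p = 1). Fcgr3, a low-affinity receptor for immunoglobulin G, was at 6.37 and 7.85, 7.14 and 7.0, and 9.34 and 7.68 (1.42, SE 0.57, limma adjusted p = 1). In Fcer1g the homozygotes were apart by 0.73 and in Fcgr3 by 1.66, though Fcgr3 needs the gamma chain at the cell surface. Without homozygote 1 the differences were 0.85 for Tyrobp, 0.95 for Fcer1g and 0.59 for Fcgr3. Of the others, the inhibitory receptor Fcgr2b differed by 0.79, with 1.28, 1.40 and 1.5 for its other tested probe sets. It was higher in homozygote 2 (7.76) than in homozygote 1 (7.47), as were these probe sets, unlike the rest of the group. The high-affinity receptor Fcgr1 (0.92) and the lectin receptor Clec4n (1.10) were at -0.07 and 0.09 without homozygote 1. The lipid receptor Trem2, which signals through DAP12, differed by 1.42, with 0.90 without homozygote 1.

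Scavenger and endocytic receptors held the largest gaps between the homozygote cultures. Mrc1, the macrophage mannose receptor, lay at 5.92 and 6.80 in wild type, 6.63 and 7.14 in the heterozygotes, and 9.61 and 7.04 in homozygotes. Homozygote 2 lay below heterozygote 2, so the groups overlapped although the difference was 1.71 (SE 0.70, limma adjusted p = 1). Homozygote 1 was 13.0-fold above wild type 1, the largest such ratio of the 36 genes. Msr1, a receptor for modified lipoproteins, was at 5.29 and 5.47, 4.98 and 5.93, and 8.49 and 6.30 in that order (1.98, SE 0.61, limma adjusted p = 1). Here homozygote 2 also stood above all other genotypes. The other probe sets above the filter gave 2.03 and 1.58, and on the first of these homozygote 2 and wild type 2 were both at 5.47. Without homozygote 1 the difference was 0.42 for Mrc1 and 0.89 for Msr1. Cd163, the haemoglobin scavenger receptor, was at 2.42 and 1.08, 1.05 and 1.74, and 1.24 and 3.59, near the bottom of the scale on every array.

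The chains of C1q, the recognition unit of the classical complement pathway, had nearly the same profile over the arrays. Their genes C1qa, C1qc and C1qb lie next to each other with no other protein-coding gene between them. C1qa was at 7.08 and 9.08 in wild type, 8.08 and 8.05 in the heterozygotes, and 9.73 and 8.98 in homozygotes (1.28, SE 0.55). C1qb was at 7.62 and 9.25, 8.69 and 8.31, and 9.97 and 9.23 in that order (1.13, SE 0.48). C1qc was at 6.75 and 8.52, 7.80 and 7.54, and 9.33 and 8.51 (1.26, SE 0.51). In all 3 homozygote 1 was highest, wild type 2 and homozygote 2 lay close together below it, and wild type 1 was lowest (limma adjusted p = 1 for each). Wild type 2 exceeded wild type 1 by 1.64 to 2.00, which is more than the 0.74 to 0.82 between the homozygotes. Without wild type 1 the differences were 0.77, 0.71 and 0.81, and the other C1qb probe sets gave 1.20 and 0.75.

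Lysosomal and antimicrobial proteins were higher in homozygotes for 4 of 4 genes, with a median of 1.23. Lyz2, the lysozyme of phagocytes, lay at 10.54 and 11.67 in wild type, 11.59 and 11.43 in the heterozygotes, and 12.87 and 11.78 in homozygotes (1.02, SE 0.42). Ctss, the lysosomal protease cathepsin S, was at 8.39 and 9.19, 9.06 and 8.94, and 11.23 and 9.11 in that order (1.28, SE 0.58). Cd68, a lysosomal membrane glycoprotein, was at 7.42 and 8.60, 7.92 and 7.56, and 9.89 and 8.52 (1.33, SE 0.48). In each of them homozygote 1 was more than 1 log2 unit above the next culture and homozygote 2 was within 0.12 of wild type 2 (limma adjusted p = 1 for each). Without homozygote 1 the difference was 0.48 for Lyz2, 0.22 for Ctss and 0.65 for Cd68. The perforin-like protein Mpeg1 differed by 1.18, with 0.80 without homozygote 1.

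The subunits of the membrane cytochrome of the phagocyte oxidase parted. Cybb, the catalytic subunit, lay at 5.39 and 6.5 in wild type, 6.41 and 5.97 in the heterozygotes, and 7.62 and 6.93 in homozygotes. Both homozygotes were above all other cultures (1.21, SE 0.38, limma adjusted p = 1). The other probe sets gave 1.56 and 0.35 but were not separated in this way. On the first, wild type 2 was at 5.45 and homozygote 2 at 5.44. On the second, wild type 1 was at 5.09 and homozygote 1 at 4.92. Cyba, the partner of Cybb, which many cell types express with other oxidases, was at 11 and 11.54, 11.21 and 10.83, and 11.11 and 11.38 in that order. Its groups overlapped throughout (0.10, SE 0.25, limma adjusted p = 1), and the difference was -0.01 without quantile normalization. The chemokine Pf4, platelet factor 4, which embryonic macrophages also express, was at 6.63 and 7.08, 6.34 and 7.08, and 9.18 and 7.09 (1.35, SE 0.58, limma adjusted p = 1). Homozygote 1 stood alone, and without it the difference was 0.31.

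**Figure D2:**
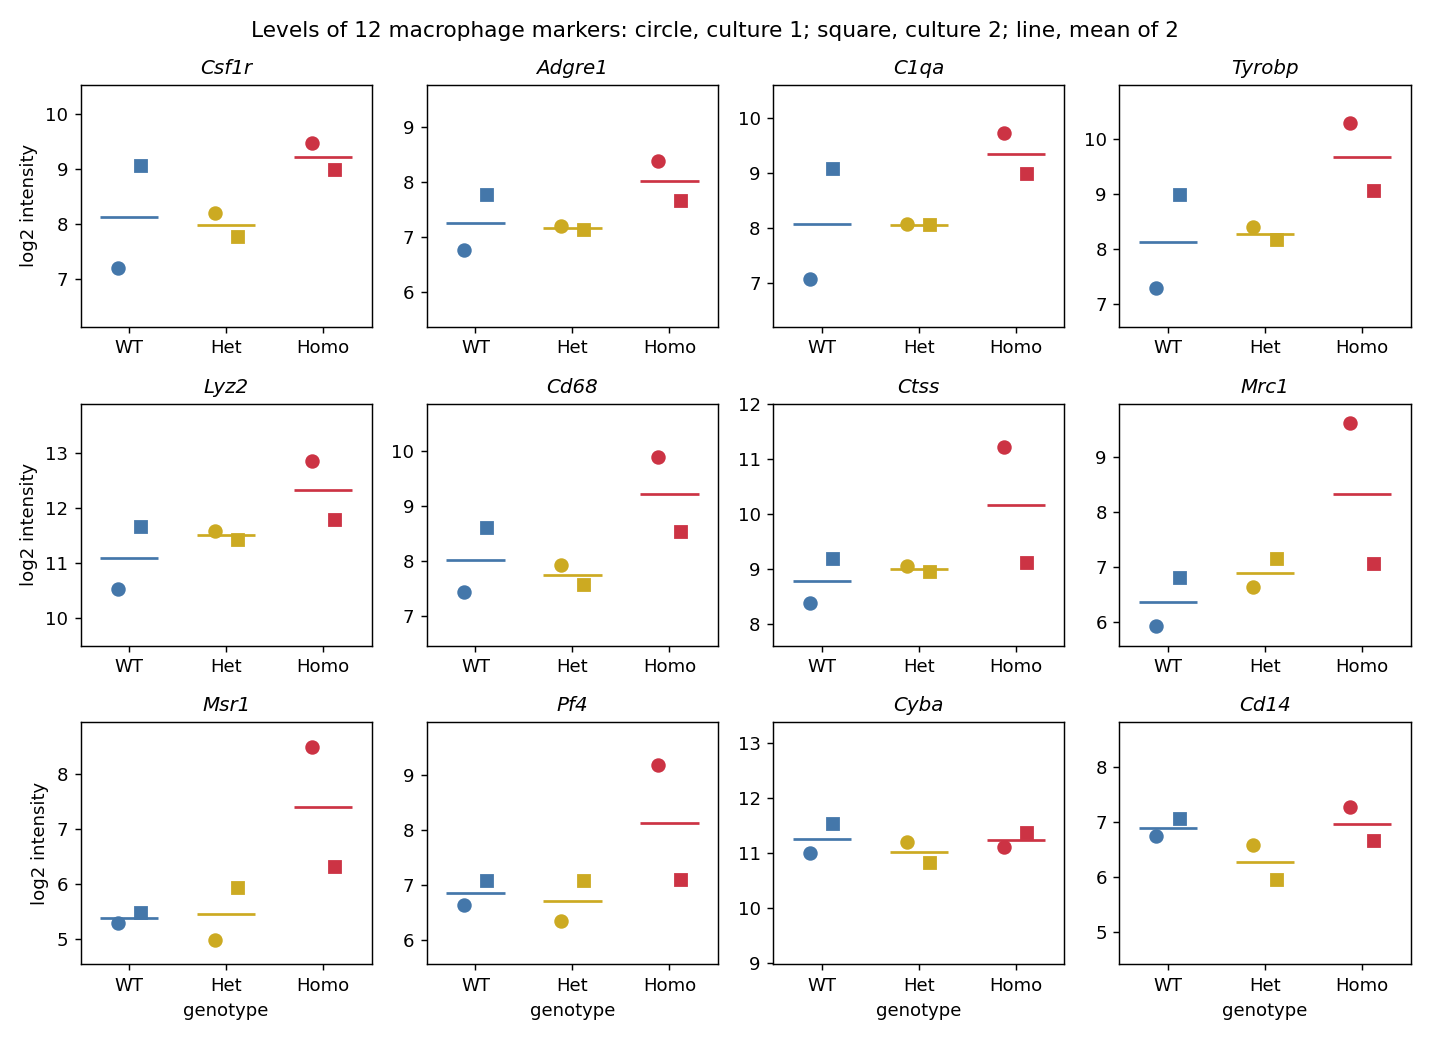
Log2 intensity (y axis, every panel spans the same range) of 12 macrophage markers by genotype, with a circle for culture 1, a square for culture 2 and a line for their mean. Homozygote 1 is above all other cultures in every panel but that of Cyba, and homozygote 2 lies near wild type 2 in the panels of Csf1r, Adgre1, C1qa, Tyrobp, Lyz2, Cd68, Ctss and Pf4.

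The wild-type cultures and the homozygote cultures differed among themselves by about as much as the genotypes did, and the heterozygote cultures did not. Wild type 2 exceeded wild type 1 for 34 of 36 markers (52.1% of all genes), with a median of 1.05, or 2.08-fold. Homozygote 1 exceeded homozygote 2 for 30 of 36 (45.3% of all genes), with a median of 0.88, or 1.84-fold. The heterozygotes were close together, with a median of -0.10 for heterozygote 2 minus heterozygote 1. The size of their differences had a median of 0.34 among markers and 0.35 among all genes. Homozygote 2 was above wild type 2 for 17 of 36 markers (48.7% of all genes), with a median of -0.02. Homozygote 1 exceeded wild type 2 for 31 of 36 (45.3% of all genes), with a median of 0.84.

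The largest gaps in favour of homozygote 1 over homozygote 2 belonged to Mrc1 (2.57), Msr1 (2.19), Ctss (2.13), Pf4 (2.09) and Clec4n (2.03), and these genes had gaps of 0.88, 0.19, 0.80, 0.46 and 0.87 between the wild types. The largest gaps in favour of wild type 2 over wild type 1 belonged to C1qa (2.00), Csf1r (1.87), Cd52 (1.80), Fcer1g (1.78) and C1qc (1.77), and these had 0.74, 0.48, 0.14, 0.73 and 0.82 between the homozygotes. These genes were picked for their gaps in 1 genotype, so that their gaps in the other are smaller follows in part from the choice. Over the 31 markers above the filter the gaps in the 2 genotypes had a Pearson r of -0.34 and a Spearman rho of -0.38, and over all 36 an r of 0.40 and a rho of -0.02. These describe genes that share the same 4 arrays, their sign depends on the dim genes, and no relation is read from them.

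**Figure D3:**
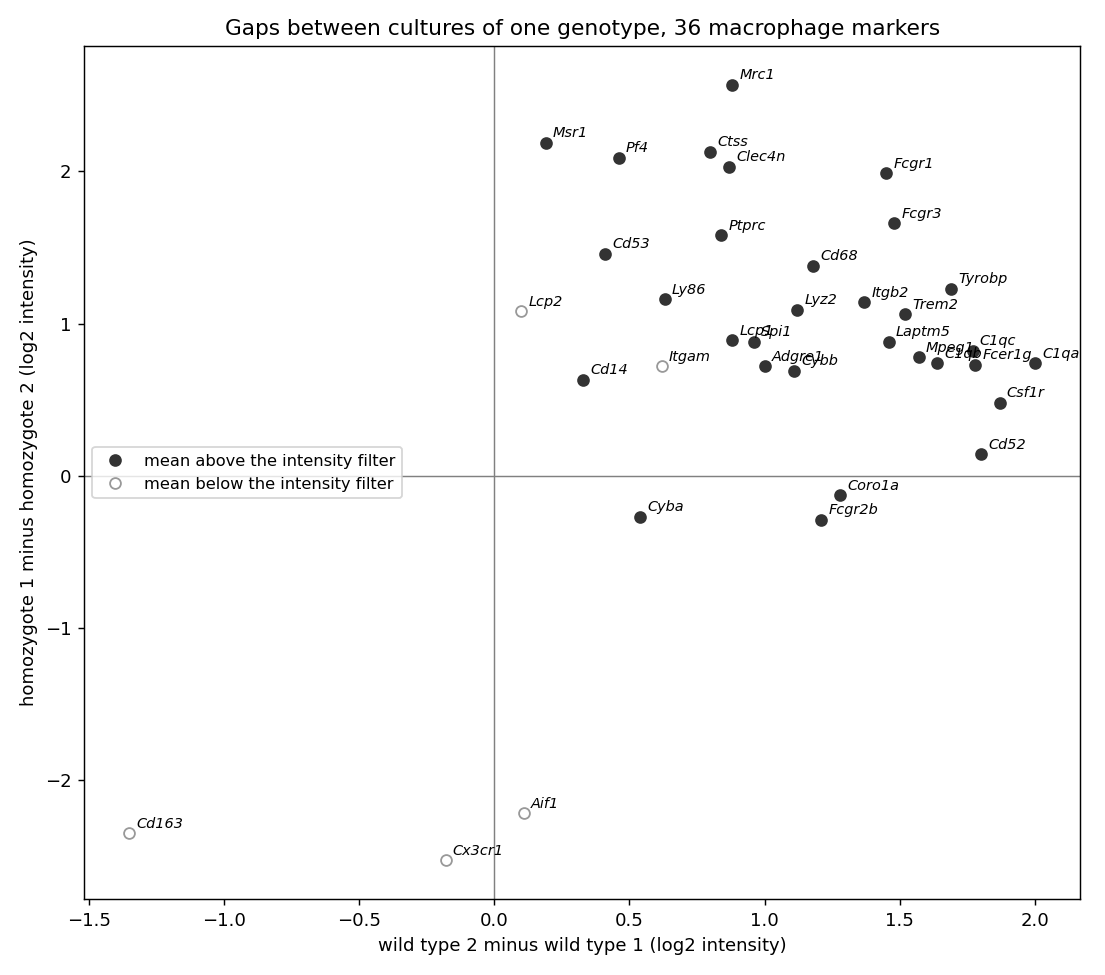
Each point is 1 of the 36 macrophage markers, by its difference between the wild-type cultures (x axis, log2 intensity) and between the homozygote cultures (y axis, log2 intensity), with open points for genes below the intensity filter. Mrc1, Msr1, Pf4, Ctss and Clec4n lie at the top with gaps from 2.03 to 2.57 between homozygotes, and C1qa, Csf1r, Fcer1g and Cd52 at the right with gaps from 1.78 to 2.00 between wild types.

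Other genes of macrophages and of their signalling were highest in homozygote 1 by their median level. Their lists were drawn up from general knowledge, but with earlier results of these data known. They come from the same arrays as the markers and add no independent evidence. Of 63 measured further macrophage genes, 57 had a higher level in homozygotes (47.6% of all genes), with a median of 0.71. Under the other scalings 57 were higher too (medians 0.64 and 0.68). Limma called 0 of the 41 above the filter, as it did 0% of all tested probe sets. It gave 13 at an unadjusted p under 0.05, all higher, against 1.1% of tested genes higher at that level. Both homozygotes lay above the other 4 arrays for 17 of the 63, against 4.09% of all genes. The list was at -0.54 in wild type 1, 0.03 in wild type 2, -0.14 and -0.20 in the heterozygotes, and 0.69 and 0.18 in the homozygotes. Gpnmb, a lysosomal glycoprotein, lay at 9.72 and 10.39, 10.39 and 9.91, and 12.15 and 10.62 in wild type, heterozygotes and homozygotes (1.28, SE 0.46). Apoe, the apolipoprotein E gene (0.74, SE 0.40), and the proteases Ctsc (0.35, SE 0.35) and Lgmn (0.40, SE 0.34) are also transcribed in other cells and differed less (limma adjusted p = 1 for all 4). Of 14 genes of immune receptor signalling, 11 were higher (47.6% of all genes), with a median of 0.62 (0.59 to 0.63 under the other scalings). Their level was 0.68 and 0.16 in the homozygotes, 0.10 in wild type 2, -0.23 in wild type 1 and -0.27 and -0.31 in the heterozygotes, so wild type 1 was not the low extreme here. Among them Ncf1, a cytosolic oxidase subunit, differed by 0.96 (SE 0.30), while Arhgdib, Plcg2 and Blnk were at -0.04, 0.10 and 0.30 (limma adjusted p = 1 for all 4).

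Marker lists of other blood cells did not show this order. No neutrophil granule gene of 9, no mast cell gene of 7 and no B cell gene of 5 had a mean above the filter. Of T and NK cell genes 2 of 8 did, of dendritic cell genes 2 of 10, of osteoclast genes 3 of 8, of erythroid genes 1 of 7 and of megakaryocyte genes 4 of 6. Homozygotes were higher for 6 of 9 neutrophil genes, 4 of 7 mast cell genes, 2 of 5 B cell genes and 3 of 8 T and NK cell genes, with medians of 0.29, 0.33, -0.07 and -0.12. The dendritic, osteoclast, megakaryocyte and erythroid medians were -0.08, -0.09, -0.01 and -0.34. That of megakaryocytes was 0.01 with median centring. The class II genes H2-Ab1 (4.88 on average) and Cd74 (4.51), which present antigen on dendritic cells and activated macrophages, were near or below the filter. Endothelial genes had a median of 0.21, with 5 of 8 higher.

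Fibroblast genes had a median of 0.10, with 10 of 14 higher, but they did not stand still from culture to culture. Homozygote 1 was highest for 5 of the 14 (16.5% of all genes) and wild type 1 lowest for 11 (22.6% of all genes). The proteoglycan gene Dcn (decorin) was at 8.76 and 10.42 in wild type, 10.93 and 11.01 in the heterozygotes, and 12.11 and 11.44 in homozygotes (1.5, SE 0.47). Lum (lumican) was at 7.39 and 9.91, 10.37 and 10.9, and 12.32 and 9.96 in that order (1.5, SE 0.87). The growth factor receptor Pdgfra was at 6.8 and 8.45, 8.84 and 9.38, and 10.44 and 8.32 (1.01, SE 0.69). These 3 genes, chosen after their values were seen, were highest in homozygote 1 and lowest in wild type 1, as were 18 of the 36 macrophage markers (limma adjusted p = 1 for each). Both homozygotes lay above the other cultures for Dcn, while for Lum and Pdgfra homozygote 2 lay below both heterozygotes. Other fibroblast genes went the other way. Thy1 was lowest in homozygote 1 (11.5), and Vim, which varied little, was highest in wild type 1 (13.81) and lowest in homozygote 1 (13.68). The part of such a difference among the fibroblasts in the macrophage marker levels was not tested.

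**Figure D4:**
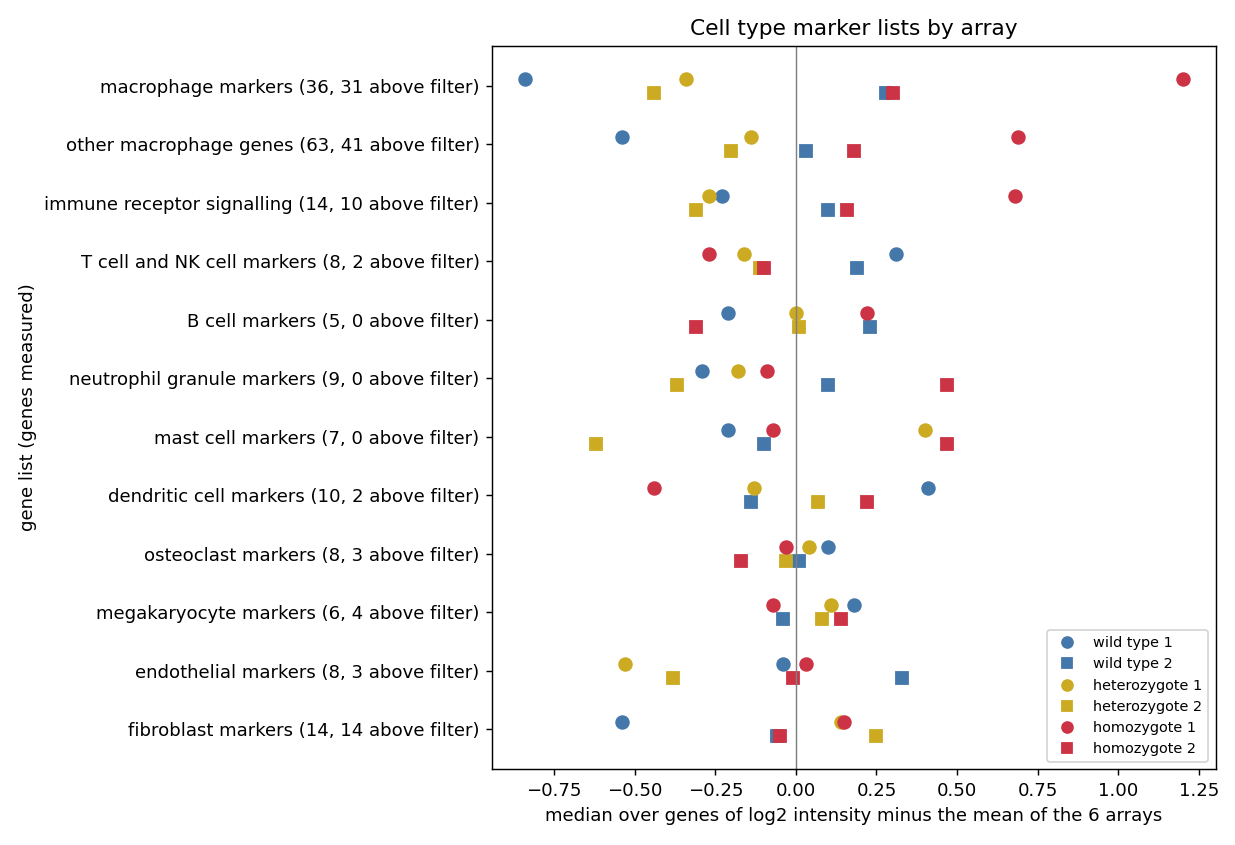
Level of each marker list on each array (x axis), as the median over its measured genes of the log2 intensity minus the gene's mean over the 6 arrays, with circles for culture 1 and squares for culture 2 of each genotype. The macrophage lists spread from wild type 1 on the left (-0.84 and -0.54) to homozygote 1 on the right (1.20 and 0.69), and no list of another blood cell has homozygote 1 beyond 0.22.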

How the data were processed

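The authors deposited linear probe set intensities, 1 value for each of 45101 probe sets on each of 6 arrays. Per the labels, biotin-labelled cRNA was made from 2 µg of total RNA by the standard Affymetrix protocol. The sources used here name neither the scanner software nor how probes were summarised or scaled. The array medians lay between 21.9 and 27.3.

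Values were converted to log2(intensity + 1.78), the pseudocount being the 10th percentile of all values, so fold changes of dim probe sets are understated. The arrays were quantile normalized, the 64 control probe sets removed, and the upper 50% of the rest by mean (22519) tested. Genes were named from the platform annotation, with symbols checked through Entrez identifiers. The fit was limma 3.58.1 (R 4.3.3; lmFit, eBayes) with a mean for each genotype over all 6 arrays, 3 residual and 3.28 prior degrees of freedom, and Benjamini-Hochberg adjustment over all tested probe sets at 0.05. It was tested on simulated data. Values in every array were given for up to 3 genes of each role with the highest mean and for the smallest p. Other members were given by single values chosen after they were seen, or by counts. From each other list up to 4 genes of the highest mean could be named, and the fibroblast genes Dcn, Lum, Pdgfra and Thy1 were named outside this rule. Members and lists were chosen with earlier results of these data known. The alternatives were other scalings, a pseudocount of 16, averaged probe sets, the filter, fewer groups, a replicate block, embryo sex and each array left out.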

Additional observations from a re-analysis of the deposited data

How the results depend on the processing

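The number of arrays limits every statement, and 0 macrophage markers passed the threshold under any alternative run (limma adjusted p of markers in the main comparison from 0.596 to 1 over the alternatives). Over the 6 fits that each leave out 1 array, the median difference of the 36 markers ran from 0.73 to 1.57 in the main comparison, from 0.44 to 1.69 against wild type, from 0.77 to 1.58 against heterozygotes, and from -0.69 to 0.35 for heterozygotes against wild type. The count of separated markers ran from 12 to 30 in these fits and was 19 with median centring. Fitted with embryo sex as a covariate, the comparisons had medians of -0.14, 0.37, -0.49 and 0.81 in that order. With that covariate the main difference was also below 0 for Csf1r (-0.57), Spi1 (-0.43), Laptm5 (-0.28), Adgre1 (-0.20), Cd14 (-0.02), Ly86 (-0.05), Tyrobp (-0.25), Fcer1g (-0.40), Fcgr3 (-0.16), C1qa (-0.61), C1qb (-0.45), C1qc (-0.44), Lyz2 (-0.16) and Cyba (-0.34). Cyba was at -0.01 without quantile normalization and between -0.04 (without wild type 1 or homozygote 2) and 0.23 when 1 array was left out, and Cd163 at -0.34 without homozygote 2. The changes with the covariate rested mainly on the gap between the wild-type cultures. What caused that gap and the other changes was not tested. Without quantile normalization the median of all genes moved from -0.01 to -0.13 between homozygotes and heterozygotes. The other 70 values, which are medians of the 4 comparisons, the count of markers past the threshold and the count of separated markers, moved by less than the spread between cultures of a genotype (0.59 for the list's level) or, for separated markers, by no more than 1.5 times. The counts of higher markers and of unadjusted p under 0.05 moved further, as given beside them. Same-numbered arrays did not deviate together (correlations of -0.36, -0.14 and -0.14 between genotypes), so the numbers do not show a pairing. With the replicate block the median difference stayed at 1.16, 0 markers passed, and 9 of 31 had an unadjusted limma p under 0.05, against 15 without it.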

Other observations

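Pf4 and Ppbp, chemokines stored in platelets, differed in opposite directions between homozygote 1 and the other cultures. Ppbp, platelet basic protein, lay at 8.82 and 8.90 in wild type, 8.69 and 8.61 in the heterozygotes, and 7.48 and 9.13 in homozygotes (difference -0.45, SE 0.44, limma adjusted p = 1). It was thus lowest in homozygote 1, where Pf4 was highest (9.18). Itga2b, the platelet integrin chain, lay between 6.21 and 6.92 on all 6 arrays. The cytokines Il34, a further ligand of the CSF1 receptor, and Csf3 were below the filter. Il34 was at 2.76 and 4.65 in wild type, 4.92 and 4.42 in the heterozygotes, and 2.53 and 4.88 in homozygotes.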
